A study of Mus musculus with 3 samples.

Results

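Apolipoproteins are the protein shell of the lipoprotein particles that carry cholesterol and triglycerides in the blood, and the liver makes most of them. The 10 apolipoprotein genes described here were Apob, Apoa1, Apoa2, Apoa4, Apoa5, Apoc1, Apoc3, Apoe, Apom and Apoh. Contacts of the splicing factor RBFOX2 with their transcripts were read from eiCLIP of primary mouse hepatocytes. In this method UV light links protein to RNA, the protein is immunoprecipitated, and the linked nucleotide halts reverse transcription, so each cDNA begins at the site of contact. A cluster is a stretch of the genome in which such starts are dense, and its count is taken to be the number of cDNA starts inside it. A cluster was given to an apolipoprotein gene when it lay on the strand of the gene and its midpoint fell inside the annotated span of the gene. By that rule 121 of the 87021 deposited clusters (0.139%) belonged to these genes, with 4336 of the 2850863 counts (0.152%).

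The cells were hepatocytes of C57BL6/J mice on control diet, plated overnight and irradiated at 150 mJ per square cm before precipitation with an antibody to RBFOX2. The 3 libraries formed 1 group, and each was labelled with 3 livers and 3 pellets, while the methods of the study describe independent cultures made from pooled mice. The authors called clusters on the 3 libraries together, so no value below has a spread between libraries or a replicate check, and the intervals cover counting error only. The size-matched input and the RNA level of each gene were not analysed here. RBFOX2 binding and transcript abundance therefore cannot be told apart in any count below. Of the hepatocyte markers, 9 of 10 had a cluster (10423 counts in all), against 1 of 6 for sinusoidal endothelial cells (12 counts), 3 of 6 for Kupffer and other immune cells (53 counts), 1 of 6 for stellate cells (150 counts) and 0 of 5 for bile duct cells. Alb alone supplied 8110 of the hepatocyte counts and Cps1 1540, and Reln all 150 of the stellate counts. The median sum per marker was 152.5 for hepatocytes, 7 for Kupffer and other immune cells and 0 for the other types.

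RBFOX proteins recognise the RNA word GCAUG, written GCATG in DNA letters. They are best known for binding introns beside alternative exons, where they help to decide whether the exon is kept, and they also bind messenger RNA outside introns. Among apolipoproteins, APOB is the non-exchangeable backbone of very low density and low density lipoproteins, whereas APOA1 is the main protein of high density lipoprotein. APOA2, APOA4, APOA5, APOE and the APOC proteins are exchangeable, moving between particles and acting on lipases and receptors.

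Clusters were found in 9 of the 10 apolipoprotein genes, and Apoa5 had none. Among other protein-coding genes 41.7% had at least 1 cluster (9182 of 22018). Apob held 74 of the 121 clusters (61.2%) and 2337 counts, which placed it at rank 119 of 10744 genes by summed count. Apoa1 (639 counts in 15 clusters, rank 590) and Apoe (638 counts in 13 clusters, rank 591) followed, and their sums differed by 1 count. Apoa4 had 337 counts in 8 clusters, Apoa2 208 in 3, Apoc3 72 in 2, Apoh 58 in 3, Apoc1 36 in 2 and Apom 11 in 1. The summed count therefore spanned from 11 in Apom to 2337 in Apob among the genes with a cluster. Counts per cluster ran from 10, the minimum of the whole list, to 285, with a median of 22 against 17 over the whole list. Of the 121 clusters, 8 reached 100 counts.

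**Figure D1:**
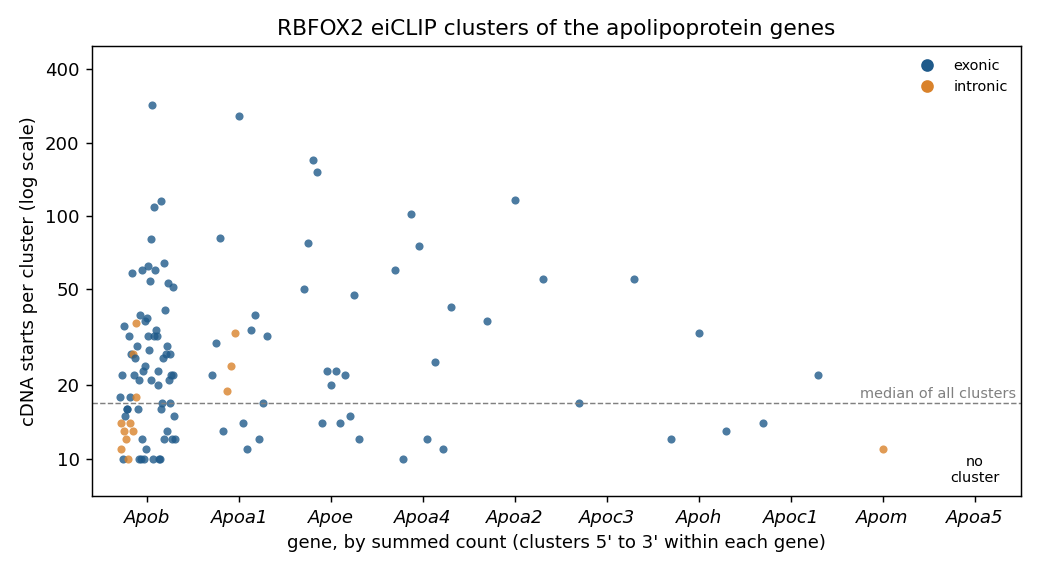
Count of cDNA starts in each RBFOX2 cluster (log scale), by gene in order of summed count, with clusters of a gene spread from 5′ to 3′ and coloured by exon or intron. The highest clusters lie in Apob (285) and Apoa1 (258), intronic clusters occur in Apob, Apoa1 and Apom, all at or below 36 counts, and Apoa5 has no cluster.

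The clusters of the apolipoprotein genes lay mostly in exons. Of the 121 clusters, 107 had their midpoint in an exon, or 88.4% (Wilson 95% interval 81.5 to 93.0%), against 31.3% of the clusters of other protein-coding genes. Coding sequence held 99 of them, 5′ UTRs 5 and 3′ UTRs 3. Introns held 14 (11.6%, 7.02 to 18.5%), of which 10 were in Apob, 3 in Apoa1 and 1 in Apom. By count the exonic part was larger, since exonic clusters carried 4081 of the 4336 counts (94.1%). The median was 23 counts for an exonic cluster and 14 for an intronic one, and the highest intronic cluster, in Apob, had 36. In 8 of the 10 genes exonic clusters outnumbered intronic ones.

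Set against length, exons were again the denser compartment. The 26721 nt of annotated exon held 4.004 clusters per kb (exact Poisson 95% interval 3.28 to 4.84), and the 104792 nt of intron held 0.134 per kb (0.0730 to 0.224). Other protein-coding genes with a cluster held 0.513 exonic and 0.0706 intronic clusters per kb. Secreted plasma protein genes, which the liver also transcribes heavily, held 2.56 exonic and 0.377 intronic clusters per kb. In clusters per kb of exon the apolipoprotein genes were denser than both sets. In counts per kb of exon they had 153, against 167 in the plasma protein genes and 15.6 in other protein-coding genes with a cluster. Their pooled intronic density rested on Apoh, which held 68949 nt of the intron and no intronic cluster. Most of that length lay inside the annotated span of Apoh but upstream of its reference transcript. Without Apoh the pooled intronic density was 0.391 per kb (0.214 to 0.655), an interval that includes the value of the plasma protein genes. In counts per kb of exon the order was Apoa1 (456), Apoa2 (387), Apoe (319), Apoa4 (186), Apob (156), Apoc3 (71.0), Apoc1 (65.0) and Apoh (27.7), with Apoa5 and Apom at 0. In clusters per kb of exon the neighbours in this order had overlapping Poisson intervals, from 5.02 to 16.96 for Apoa1 and from 1.15 to 16.3 for Apoa2, for example.

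**Figure D2:**
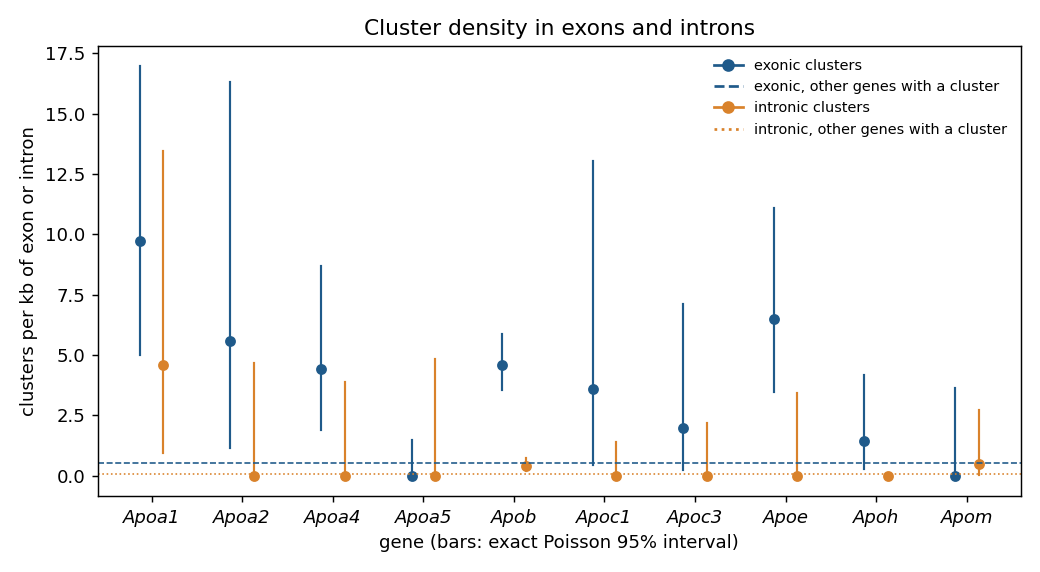
Clusters per kb of exon (blue) and of intron (orange) in each apolipoprotein gene, with exact Poisson 95% intervals, and the same values over other protein-coding genes with a cluster as horizontal lines (0.513 exonic, 0.0706 intronic). Exonic density is highest in Apoa1 (9.71 per kb) and lies above the exonic line in the 8 genes with an exonic cluster. In Apoc1, Apoc3 and Apoh the interval includes that line (lower limits 0.437, 0.239 and 0.295). The exonic intervals of Apoa5 and Apom start at 0 and include it too.

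The comparison with other gene lists was made on shares, without a test, and clusters of 1 gene share a transcript and are not independent. The exonic share was 50% in 35 secreted plasma protein genes (Wilson 95% interval 45.5 to 54.5%, 466 clusters), 46.2% in 25 cholesterol synthesis genes (38.6 to 54.0%, 158 clusters) and 40.2% in 44 genes of lipoprotein assembly, lipolysis and uptake (33.8 to 47.0%, 209 clusters). None of these intervals overlapped that of the apolipoprotein genes, and leaving out Apob gave 91.5% (80.1 to 96.6%, 47 clusters). The share in plasma protein genes rested in part on Gc, the vitamin D binding protein gene, which held 96 of their intronic clusters and 17 exonic ones, and without Gc, chosen after its values were seen, it was 61.2% (56.0 to 66.1%, 353 clusters). Counted by gene, exonic clusters outnumbered intronic ones in 24 of 34 plasma protein genes with a cluster (22 to 0 in Alb), in 9 of 20 cholesterol synthesis genes and in 8 of 9 apolipoprotein genes. A mostly exonic pattern was therefore shared with many plasma protein genes. Coding sequence held 81.8% of all clusters of the apolipoprotein genes, 41.2% of those of the plasma protein genes (with Gc) and 14.5% of those of other protein-coding genes. These shares count intronic clusters too, so they largely restate the exonic shares and are not a separate difference.

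Pooled over the genes, the clusters were also narrow, except among those with the highest counts. Their median width was 10 nt, against 18 nt over all other clusters and 23 nt in other protein-coding genes. Among clusters of at least 17 counts the medians were 15.5 and 25 nt, and among those of at least 39 counts the order turned, with 40 nt in the apolipoprotein genes (29 clusters, 95% interval of the median 21 to 57 nt) and 32 nt elsewhere, a value inside that interval. Exonic clusters alone had a median of 10 nt in the apolipoprotein genes (16 nt without Apob), 23 nt in other protein-coding genes and 26 nt in plasma protein genes. The narrow median was not shared by every gene. Over all clusters of a gene it was 8 nt in Apob and Apoa1, 7 in Apoe and 2 in Apom. It was 27 nt in Apoa4, 32 in Apoh, 41 in Apoc1, 46 in Apoc3 and 49 in Apoa2. In 17 of the 121 clusters (14.05%) all starts fell on 1 nucleotide, compared with 6.33% in other protein-coding genes. Of these 17, 11 were in Apob and 5 in Apoa1. The widest cluster, 185 nt, covered most of exon 21 of Apob.

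Apob, the backbone of the triglyceride-rich particles secreted by the liver, lies on the plus strand of chromosome 12 (GRCm38, 7977648 to 8016835; ENSMUSG00000020609.14). Its reference transcript has 29 exons, 13934 nt of mRNA and 4505 codons. The 74 clusters comprised 62 in coding sequence, 1 in the 5′ UTR, 1 in the 3′ UTR and 10 in introns. Clusters occurred in 16 of 29 exons and in 7 of 28 introns. The highest, at 8009994 to 8010019 in exon 26, had 285 counts (exact Poisson 95% interval 253 to 320), which was 12.2% of the sum of the gene. In the same exon, 115 counts lay at 8011633 to 8011673 and 109 at 8010652 to 8010711. Next were clusters of 80 counts, from 8009664 to 8009742, and of 64, from 8012660 to 8012687. The intervals of the second and the third overlapped, whereas the highest stood apart from them. The other 69 clusters had 10 to 62 counts and comprised 57 in coding sequence, 1 in each UTR and 10 in introns.

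Exon 26 is the giant coding exon of Apob, 7467 nt long, and held 36 of its 64 exonic clusters with 1463 counts. Their 5′ ends were spaced at a median of 135 nt, from 18 nt up to 668 nt. The exon also holds the site at which the liver and intestine of rodents convert a CAA codon to a stop by C-to-U editing, so that the truncated protein APOB48 is made in place of APOB100. The edited codon was located by the single match of the mooring motif GATCAGTAT in the mRNA, at codon 2179, mRNA position 6666 and genome position 8008054. The sequence around it is shown to place the clusters, with the edited codon in capitals, plus strand of chromosome 12, mRNA positions 6660 to 6689:
Apob edited codon: gcgataCAAtttgatcagtatattaaagat
Within 100 nt of the edited C there was 1 cluster 5′ end, 53 nt upstream, with 23 counts. The highest cluster of the gene began 1940 nt downstream of it. On the mRNA, 22 clusters (535 counts) began in the 6665 nt before the edited C and 42 (1634 counts) in the 7269 nt from there on, or 3.30 clusters per kb (exact Poisson 95% interval 2.07 to 4.997) against 5.78 (4.16 to 7.81), and these intervals overlapped. In counts the step was larger, from 80.3 to 225 counts per kb. By segment the density was 3.22 per kb in the exons before exon 26, 3.45 in exon 26 up to the edited codon, 5.44 in the rest of exon 26 and 6.60 in the exons after it, and the median width fell by segment from 51.5 to 12.5, 7 and 4 nt.

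**Figure D3:**
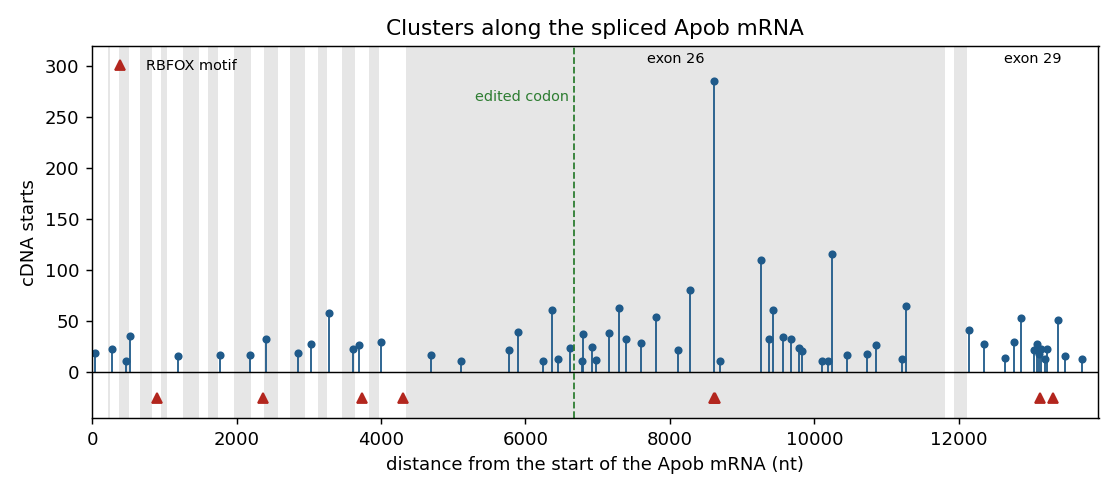
Clusters along the spliced Apob mRNA, placed by the distance of their 5′ end from the start of the mRNA (nt) and drawn to the height of their count, with alternating exons shaded, RBFOX motifs as triangles and the edited codon as a dashed line. The highest cluster (285 counts) stands over a pair of motifs 1940 nt past the edited codon, and exon 29, the last, is set with closely spaced low clusters.

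The highest Apob cluster contained the RBFOX motif. GCATG began 6 nt and again 21 nt downstream of its 5′ end, so that both copies lay inside the 26 nt of the cluster. Sequences below are in mRNA sense from the annotated transcripts of GENCODE M21, with GCATG in capitals. The first begins 15 nt before the 5′ end of the cluster, which is its 16th base, and the second covers the downstream copy:
Apob chr12:8009994-8010019, plus strand, mRNA 8591 to 8620: atccatgaacttctccagtaaGCATGtgag
Apob, mRNA 8615 to 8644: tgtgagaatggaGCATGagggtgagatagt
The Apob mRNA held 8 copies of GCATG, all in coding sequence, and 5 of them lay inside cluster windows, that is, clusters with 50 nt added on each side. Those windows covered 50.5% of the mRNA. Besides the pair at the highest cluster, the copy at mRNA position 2366 had a 32-count cluster 35 nt downstream, that at 3743 a 26-count cluster 49 nt upstream and that at 13126 a 22-count cluster 8 nt downstream. These 3 copies had the following sequence:
Apob, mRNA 2354 to 2383: tacagatggcaaGCATGaacaggacatggt
Apob, mRNA 3731 to 3760: tcctagaatgttGCATGagtatgccaatgg
Apob, mRNA 13114 to 13143: attttgatccgaGCATGgttgggtggacag
The copy at 13126 was shared by the windows of 3 clusters in exon 29, with 27 counts at 8015985 to 8015986, 17 at 8016006 to 8016008 and 22 at 8016035 to 8016037. The remaining copies, at 893, 4300 and 13309, had the 5′ end of their nearest cluster at 289, -301 and 62 nt, counted downstream from the motif. The other 4 of the 5 highest Apob clusters had no GCATG in their window, the nearest copy being 336 to 1854 nt away.

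The 10 intronic clusters of Apob were low. The highest had 36 counts in intron 23, at 8003106 to 8003192, followed by 27 counts in intron 21 at 8001614 to 8001623 and 18 counts in intron 23 at 8002460 to 8002501. The others had 10 to 14 counts, in introns 1, 6, 11, 15, 18 and 21. A pair of them, in introns 11 and 21, began 6 nt from a splice site and ran across it. Summed over 25254 nt of intron the density was 0.396 clusters per kb (exact Poisson 95% interval 0.190 to 0.728), above the 0.0706 of other protein-coding genes and close to the 0.377 of plasma protein genes. Intronic windows had no sequence here, so the motif could not be looked for in them.

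Apoa1, Apoc3, Apoa4 and Apoa5 lie together within 43340 nt of chromosome 9 (46228580 to 46271919), and the 4 genes differed in clusters: 15, 2, 8 and 0. Apoa1 encodes the main protein of high density lipoprotein and the activator of the enzyme that esterifies its cholesterol. Its span (plus strand, 46228580 to 46230466; ENSMUSG00000032083.8) is only 1887 nt long, and it had the highest exonic density, 9.71 clusters per kb (5.02 to 16.96). The highest cluster, at 46229879 to 46229931 in exon 4, had 258 counts (exact Poisson 95% interval 227 to 291), or 40.4% of the sum of the gene. Then came 81 counts in exon 3 (46229157 to 46229175), 39 and 34 in exon 4 (46230168 to 46230172 and 46230127 to 46230130), and 33 in intron 3 (46229626 to 46229633). The other 10 clusters had 11 to 32 counts, with 6 in coding sequence, 1 in each UTR and 2 in introns. All 3 intronic clusters were in intron 3, with 19, 24 and 33 counts, and the density there and in the other introns was 4.61 per kb (0.9503 to 13.5).

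The Apoa1 mRNA held a single GCATG, at position 697 in coding sequence. The 34-count cluster began 1 nt upstream of it, and an 11-count cluster began 16 nt upstream. The highest Apoa1 cluster began 249 nt upstream of the motif and had none in its window. The stretch at its 5′ end and the stretch around the motif are given to show the contrast:
Apoa1 chr9:46229879-46229931, plus strand, mRNA 433 to 462: ggctgggcccattgactcgggacttctggg
Apoa1 motif, mRNA 685 to 714: aatttcgcgaccGCATGcgcacacacgtag
With the cluster at 46230168, 3 of the 8 Apoa1 windows with sequence held the motif, and all 3 held this same copy.

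Apoa2 encodes the second most abundant protein of high density lipoprotein and lies on the plus strand of chromosome 1 (171225054 to 171226379; ENSMUSG00000005681.12). It had 3 clusters, all in coding sequence. The one in exon 3, at 171225729 to 171225777, had 116 counts (95.9 to 139), that in exon 4, at 171226145 to 171226251, had 55 (41.4 to 71.6), and that in exon 2, at 171225360 to 171225362, had 37 (26.1 to 51.0). The first stood above the others beyond counting error, and the intervals of the other two overlapped. The only GCATG of the 518 nt mRNA, at position 215, began 3 nt downstream of the 5′ end of the highest cluster and lay inside it:
Apoa2 chr1:171225729-171225777, plus strand, mRNA 197 to 226: tcactcaatactttcagaGCATGactgatt
This window crossed an exon border and was left out of the shares of windows below, which were read on the genome.

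Apoa4 encodes a lipid-binding protein made in the intestine and liver (chromosome 9, plus strand, 46240696 to 46243459; ENSMUSG00000032080.6). It had 8 clusters and no intronic one. The 5 highest had 102 counts at 46242351 to 46242385, 75 at 46242640 to 46242671, 42 at 46243184 to 46243217 and 25 at 46242970 to 46242987, all in exon 3, and 60 in the 5′ UTR at 46241064 to 46241176. The other 3 had 10 to 12 counts, all in coding sequence. The mRNA held 2 copies of GCATG, 86 nt downstream of the 5′ end of the 102-count cluster and 50 nt upstream of that of the 75-count cluster, and only the second fell in a cluster window:
Apoa4 chr9:46242351-46242385, plus strand, mRNA 692 to 721: caagctggtgccctttgtcgtacagctgag
Apoa4 motif, mRNA 934 to 963: catacatccagcGCATGcagaccacgatca
Unlike in Apob and Apoa2, no Apoa4 cluster began within 30 nt of the motif.

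**Figure D4:**
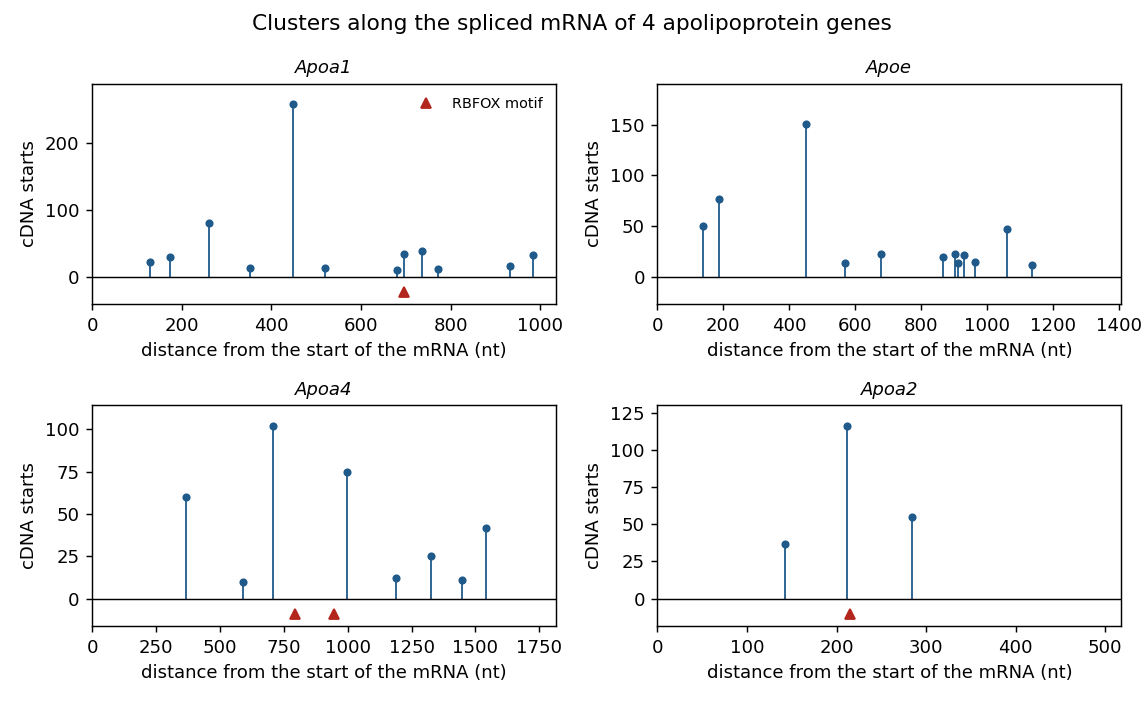
Clusters along the spliced mRNA of Apoa1, Apoe, Apoa4 and Apoa2, placed by the distance of their 5′ end from the start of the mRNA (nt) and drawn to the height of their count, with RBFOX motifs as triangles. The motif lies beside the highest cluster of Apoa2 (116 counts) and beside a 34-count cluster of Apoa1, the Apoe mRNA has none, and intronic clusters and the 170-count cluster of Apoe, which begins in an intron, are not drawn.

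Apoe encodes the ligand by which lipoprotein remnants are taken up by receptors of the liver (chromosome 7, minus strand, 19696109 to 19699188; ENSMUSG00000002985.16). It had as many counts as Apoa1 to within 1, in 13 clusters, all exonic. The highest, at 19697483 to 19697649, had 170 counts (145 to 198), began 2 nt before exon 3 and covered nearly all of that exon. It was followed by 151 counts (128 to 177) at 19697017 to 19697065 in exon 4, and the intervals of both overlapped. Then came 77 counts at 19698189 to 19698245 in exon 2, 50 at 19698978 to 19699051 in the 5′ UTR, running across a splice site, and 47 at 19696440 to 19696455 in exon 4. The other 8 had 12 to 23 counts, 7 of them in coding sequence and 1 in the 3′ UTR. The Apoe mRNA of 1408 nt held no GCATG, so none of its clusters could have the motif on the spliced transcript:
Apoe chr7:19697017-19697065, minus strand, mRNA 437 to 466: cggaagtaaaggcttacaaaaaggagctgg

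Apoc1 and Apoc3 encode small proteins that slow the clearance of triglyceride-rich particles, and both had 2 exonic clusters. In Apoc1, the neighbour of Apoe on chromosome 7 (minus strand, 19689481 to 19692660; ENSMUSG00000040564.14), these had 22 counts at 19691970 to 19692035 in exon 2 and 14 counts at 19692450 to 19692465 in exon 1, and the Apoc1 mRNA held no GCATG. In Apoc3 (chromosome 9, minus strand, 46232933 to 46235636; ENSMUSG00000032081.10) they had 55 counts at 46233191 to 46233265 in coding sequence and 17 at 46235253 to 46235269 in a 5′ UTR that is not part of the reference transcript. The single GCATG of Apoc3 lay in the 3′ UTR, 245 nt downstream of the 5′ end of the 55-count cluster.

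Apoa5 encodes a protein of low abundance in plasma that promotes the lipolysis of triglycerides (chromosome 9, plus strand, 46268633 to 46271919; ENSMUSG00000032079.12). It had no cluster, which over its 2522 nt of exon bounds the exonic density at 1.46 clusters per kb (upper exact Poisson limit). Its mRNA nevertheless held 5 copies of GCATG, 1 in the 5′ UTR, 1 in coding sequence and 3 in the 3′ UTR, or 1.99 per kb, the highest rate of the 10 genes. Because clusters below 10 counts are not in the list, fewer crosslinks than that could be present. The nearest clusters downstream, from 1914 nt past the end of the gene, lay in the neighbouring gene Zpr1.

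Apom encodes the carrier of sphingosine 1-phosphate on high density lipoprotein (chromosome 17, minus strand, 35128997 to 35132050; ENSMUSG00000024391.7). It had 1 cluster, in intron 1 at 35131528 to 35131529, with 11 counts (exact Poisson 95% interval 5.49 to 19.7), and was the only one of these genes with an intronic cluster and no exonic one. Apoh encodes beta-2-glycoprotein I, a phospholipid-binding plasma protein (chromosome 11, plus strand, 108343354 to 108414396; ENSMUSG00000000049.11). Its 3 clusters lay in coding sequence, with 33 counts at 108395817 to 108395877 in exon 2, 13 at 108412041 to 108412072 in exon 7 and 12 at 108395345 to 108395347 in exon 1. None lay in the 68949 nt counted as intron, which bounds the intronic density at 0.0535 per kb (upper exact Poisson limit). Most of that length lies upstream of the reference transcript, in which genome position 108395345 is mRNA position 53. It counts as intron only because the annotated span of the gene starts at 108343354. Over the introns of the reference transcript alone the limit would be higher, and it was not computed. The only GCATG of the Apoh mRNA began 42 nt downstream of the 5′ end of the 13-count cluster:
Apoh motif, plus strand, mRNA 912 to 941: gaatgggatgatGCATGgcgacaaaattca

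Over all 10 genes few of the cluster windows held the motif. GCATG occurred in 9 of the 80 cluster windows that annotated exons covered, or 11.25% (Wilson 95% interval 6.03 to 20.02%). The share in exonic cluster windows of other protein-coding genes, 19.1%, lay inside that interval. The interval treats the windows as independent, which they were not. All motif windows of Apoa1 held the same copy, and those in exon 29 of Apob shared another. Within coding sequence, where most clusters of the apolipoprotein genes lay, the shares were 11.8% (9 of 76, 6.36 to 20.999%) and 12.7% (483 of 3789), well within the interval. For each of the 80 windows, the share of all windows of its length in the exons of its gene that held the motif was also taken. The mean of these shares was 6.30%, a value inside the interval of the cluster windows. It covered the 7 genes with such a window and was weighted to Apob (51 of the 80 windows, 4.47%). In Apoc3, with 1 window, the share was 35.4%. Clusters with the motif in the window had a median of 27 counts (11 to 285, n = 9) and those without it 22 (10 to 258, n = 71). The 10 mRNAs held 20 copies of GCATG, of which 9 lay in cluster windows, which covered 45.0% of the mRNA length.

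Read along the spliced mRNA, 6 of 105 clusters had GCATG within 30 nt of their 5′ end, namely 2 in Apoa1, 1 in Apoa2 and 3 in Apob. The 2 in Apoa1 shared 1 copy, and 2 of the 3 in Apob shared the copy at 13126. This distance was not measured in other genes, so whether the number is low or high was not tested. In 91 clusters on the mRNAs that held the motif, the median distance from the 5′ end to the nearest copy was 481 nt, with a minimum of 1 nt. Among the 6 clusters within 30 nt of the motif were the highest cluster of Apob and the highest of Apoa2. Of the copies in cluster windows, 2 had a T before them, the longer form TGCATG, at Apob position 3743 and in Apoh.

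**Figure D5:**
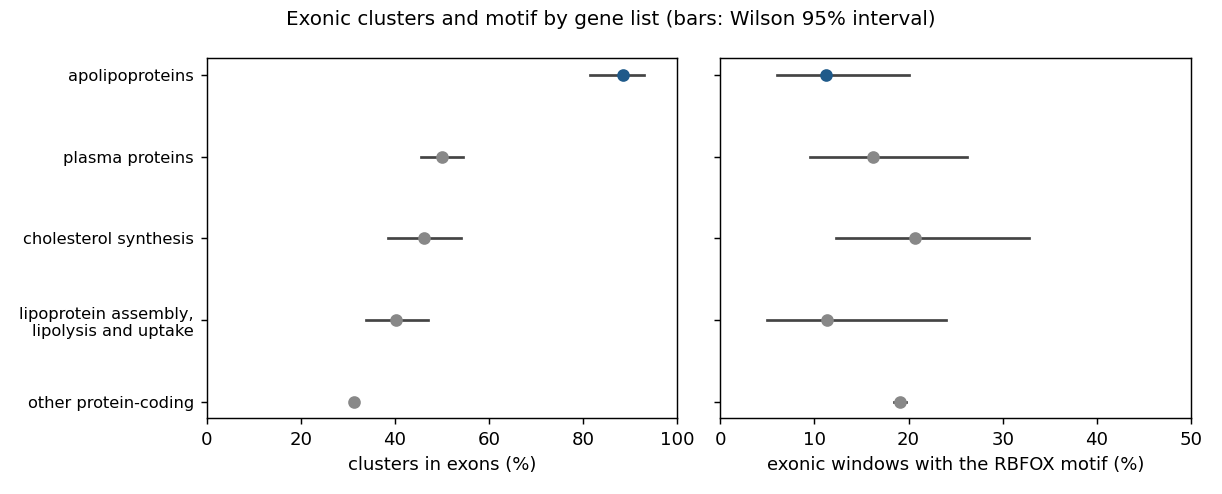
Share of clusters in exons (left) and share of exonic cluster windows that hold the RBFOX motif (right) in the apolipoprotein genes, 3 other gene lists and other protein-coding genes, with Wilson 95% intervals. The exonic share is 88.4% in the apolipoprotein genes, 50% in plasma protein genes (61.2% without Gc) and 31.3% in other protein-coding genes, while their motif share (11.25%) has an interval that overlaps those of the 3 lists.

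Position along the mRNA and at exon borders was described after the values had been seen. Over 4 equal parts of mRNA length from the 5′ end, the 105 clusters placed on the mRNAs numbered 18, 26, 36 and 25. The 64 of Apob numbered 11, 14, 20 and 19, and the 41 of the other genes 7, 12, 16 and 6. A cluster crossed an annotated splice site of the reference transcript in 7 cases, with 318 counts in all. In 4 genes a cluster began within 2 nt of the first base of an exon, in Apoe (170 counts, exon 3), Apoa2 (55 counts, exon 4), Apoh (33 counts, exon 2) and Apoc1 (22 counts, exon 2). Splice site crossing and exon starts were not measured in other genes, so whether these numbers are unusual was not tested. None of the 105 clusters with transcript sequence downstream of their 5′ end held the heptamers that resemble the start of the library adaptor.

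Among the other genes of lipoprotein metabolism introns held more of the clusters (125) than exons did (84). Their exonic share of 40.2% was nevertheless above the 31.3% of other protein-coding genes, so an intronic majority was not particular to them. Of 44 genes for assembly, lipolysis and uptake, 32 had a cluster (72.7%), and intronic clusters outnumbered exonic ones in 17 of them, exonic ones in 11, with 4 equal. Among the highest sums were those of Clu, the apolipoprotein J gene (1161 counts, 12 exonic and 20 intronic clusters), Mia2, which helps load lipoproteins into export vesicles (493 counts, 9 and 14), P4hb, the protein disulfide isomerase subunit of the triglyceride transfer complex (363 counts, 7 and 4), and Cd36, a fatty acid transporter (276 counts, 2 and 6). Mttp, the partner of P4hb that lipidates APOB, had 65 counts in 2 exonic and 2 intronic clusters and was named after its value was seen. The list also held further apolipoprotein genes that are not among the 10. In Apoc2, Apoc4, Apof, Apol9a and Apol9b together 3 clusters were exonic and 9 intronic, so the exonic share given above is that of the 10 genes and not of apolipoprotein genes in general. Most of these intronic clusters were in Apol9a (2) and Apol9b (5). No cluster was found in Lrp2, Sort1, Lpl, Pon1, Abcg5, Abcg8, Lipg, Apod, Pltp, Saa4, Gpihbp1 and Apon. In Clu 12 of 32 clusters were exonic, against 107 of 121 in the 10 apolipoprotein genes.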

How the data were processed

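The authors trimmed adaptors with cutadapt (reads of at least 18 nt), aligned reads to GRCm38 with STAR 2.4.2a, kept unique hits, removed duplicates by position and barcode, and clustered cDNA starts with Paraclu. The deposited value of a cluster is a whole-number count, unnormalised and pooled over 3 libraries; its reading as cDNA starts comes from the values. Depth per library is not given in the sources used here. The cluster list was annotated by cluster midpoint with GENCODE M21 (the study used M20), where coding sequence took precedence over the 3′ UTR, then the 5′ UTR, other exons and introns, and an exon found only in a retained-intron transcript was intron. Sequence came from transcripts placed through their exons (141767 transcripts, 0 conflicting bases), so windows of 50 nt around clusters needed full exon cover. The reference transcript had the longest coding sequence. Coordinates are 1-based. Python 3.11.15, numpy 2.4.6, scipy 1.17.1 and matplotlib 3.10.9 were used, and the code was tested on simulated data. With 1 pooled group there was no test: shares have Wilson and counts exact Poisson 95% intervals. Up to 6 clusters of a gene were named, otherwise the 5 highest, and all with GCATG; of the lipoprotein list, the 5 highest sums (1 is not reported here) and the genes without a cluster. The genes, lists and rules were chosen with earlier results of these data known. Alternatives changed the count filter, gene assignment, merging, annotation, motif and window.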

Additional observations from a re-analysis of the deposited data

Results flagged for a closer look

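A pair of clusters near the apolipoprotein genes lay outside every annotated gene on their strand and so belonged to no gene or gene list. They were counted only among all clusters of the list. Opposite Apob, on the minus strand of chromosome 12 at 7980408 to 7980411, a cluster of 4 nt had 11 counts. Past the 3′ end of Apoc3, its midpoint 346 nt beyond the annotated end, a cluster at 46232567 to 46232608 on the minus strand of chromosome 9 also had 11 counts. Both were 1 count above the lowest count in the list, 10.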

How the results depend on the processing

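Of 49 alternative values, 32 stayed within the 95% interval of the reported share, median or density, or within 1.5 times the reported number or sum. The other 17 moved. Several of the 32 could not change, so their number is not a measure of robustness. Merging keeps the sum of counts, assignment by the 5′ end kept the exon class of the midpoint, and no adaptor-like heptamer was found to leave out. Keeping clusters at or above the median of 17 counts left 80 clusters with a median of 32 counts and 15.5 nt. Keeping the top 10% (at or above 39 counts) left 29 clusters, all exonic (100%), with 2509 counts in all and medians of 60 counts and 40 nt, against 32 nt for all other clusters under that filter. Without Apoh the pooled intronic density was 0.391 clusters per kb, and without Gc the exonic share of plasma protein genes was 61.2%, both chosen after seeing the data. Without Apob there were 47 clusters with 1999 counts. Merging within 200 nt left 55 clusters of median 66 nt. Weighting by count gave an exonic share of 94.1%. The motif TGCATG was in 1.25% of windows, and GCATG within 30 nt of the 5′ end on the spliced mRNA, an alternative also added later, in 5.71%. The other windows gave 6.52 to 7.53% for the motif share. CATGC, the reverse complement of GCATG, was in 12 of 80 windows (15%), against 9 of 80 (11.25%) for GCATG itself. Leaving out a library was not possible because the 3 libraries were pooled, and depth limits the list to clusters of at least 10 counts. No paired analysis was possible because the result comes from no test.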
